A study of Mus musculus with 22 samples.

Results

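Potassium channel genes were read across the treatments and RNA pools of a mouse study of the prefrontal cortex (PFC). Members were the protein-coding genes whose mouse symbol starts with Kcn, found through their Ensembl identifiers, and the noncoding Kcnq1ot1 was left out. The rule gave 94 of the 39056 genes in the count table. Of these, 73 passed the filter on low counts (a total of at least 500 counts over the 22 libraries and a count in at least 3 libraries), and 21 did not. The rule itself uses symbols and biotypes, not measured values.

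The study took PFC from 11 male mice of 8 to 12 weeks on a C57BL/6J background. All of them, Control included, carried tetO-EGFP/Rpl10a together with CaMKIIα-tTA, so that a tagged ribosomal protein was made where the CaMKIIα promoter drives the transactivator. Control mice (n = 3) received normal saline, EtOH mice (n = 4) received ethanol at 2 g/kg per day for 4 days by intraperitoneal injection, with 2 injections per day, and EtOH + ABT-888 mice (n = 4) received the same ethanol together with the PARP inhibitor ABT-888 at 25 mg/kg on day 4. Tissue was collected 2 h after the last injection. From each mouse, RNA pulled down with the tagged ribosomes (TRAP) and the total-RNA of the same tissue (the input) were sequenced as separate libraries, so 11 TRAP libraries stand beside 11 total-RNA libraries. TRAP libraries held 6570957 to 22002618 counts and total-RNA libraries 22132534 to 32421392.

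A potassium channel lets potassium flow out of the cell down its gradient, which sets the resting potential and ends the action potential. Voltage-gated (Kv) channels are tetramers of pore-forming subunits that open on depolarization, silent Kv subunits join tetramers of other Kv pores and change their gating, and auxiliary subunits (Kcnab, Kcnip, Kcne) alter their trafficking and kinetics. Calcium- and sodium-activated channels, inward rectifiers (Kir) and two-pore (K2P) leak channels make up the rest. In cortex, Kcnj10 and Kcnj16 are known as the Kir channels of astrocytes, Kcnj8 of pericytes, Kcnj13 of choroid plexus, Kcnc1, Kcnc2 and Kcns3 of fast-spiking interneurons, and Kcnk13 of microglia. Ethanol is known to open G-protein-gated Kir channels (built from Kcnj3, Kcnj6 and Kcnj9) and to act on the calcium-activated Kcnma1 channel.

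The 94 genes comprised 30 Kv pore-forming subunits (27 tested), 10 silent Kv modifiers (9 tested), 13 auxiliary subunits (8 tested), 12 calcium- or sodium-activated channel genes with their subunits (9 tested), 15 Kir genes (11 tested) and 14 K2P genes (9 tested). Among the members that passed the filter, Kcnj13 with 555 counts and Kcnj8 with 570 lay nearest to it, and among those below it Kcne4 with 414 and Kcnj5 with 346. One member, the pancreatic K2P gene Kcnk16, had no count in any library. The members took 0.722% to 0.873% of the counts in TRAP libraries and 0.603% to 0.744% in total-RNA libraries. Gene models on the opposite strand overlapped exons of 23 tested members (GENCODE release 21, mm10), and since the strand setting of the counting is not given in the sources used here, reads of such pairs cannot be told apart. Among the 12 members called in a comparison of a treatment with Control these were Kcna6 (2355 bases), Kcnh7 (696), Kcnj9 (172) and Kcnt2 (102), and the other 8 had none.

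The tissue and cell labels were checked with marker genes. All 5 markers of striatal projection neurons (Drd1, Drd2, Adora2a, Ppp1r1b and Rgs9) were higher in Control_TRAP than in Control_total-RNA, with a summed level of 4040.4 to 5267 CPM (counts scaled to library size) against 507 to 649. Of 5 excitatory neuron markers, Nrgn was higher in TRAP, and Slc17a7, Neurod6 and Tbr1, which mark cortical excitatory neurons, were lower, while the summed level of the 5 was 4801 to 6164 CPM in Control_TRAP against 4050.3 to 4917 in Control_total-RNA. Of 7 interneuron markers, Gad1, Gad2 and Slc32a1 were higher and Pvalb and Lhx6 lower. All 7 astrocyte, 7 oligodendrocyte, 6 microglia and 7 endothelial and pericyte markers were lower in TRAP. The striatal markers and the 3 lower cortical ones thus went against a pool of cortical excitatory neurons alone, and it is called TRAP below. A lower share of cells of one type and less RNA per cell of that type cannot be told apart in these tissue samples.

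Levels between genes were compared as TMM-normalized CPM per kb of exon. In Control_total-RNA the highest members were the K2P gene Kcnk1 at 50.2 ± 2.58 CPM per kb (SD, n = 3), the Kv beta subunit Kcnab2 at 50.1 ± 7.29, the Kv1 subunit Kcna2 at 48.3 ± 3.23, the G-protein-gated Kir gene Kcnj3 at 46.7 ± 1.99 and the strong rectifier Kcnj4 at 45.9 ± 6.73. The ranges of mean ± SD of these 5 neighbours overlapped. Among the other Kv pores, Kcna1 was at 40.0 ± 3.04 CPM per kb, and among the other auxiliary subunits Kcnip3 was at 32.4 ± 1.59 and Kcnip2 at 28.8 ± 2.29. The second K2P gene, Kcnk2, reached 16.4 ± 1.07 CPM per kb and the third, Kcnk3, 3.37 ± 0.798, so Kcnk1 stood far above the rest of its family. Among the silent subunits Kcnv1 was highest at 38.2 ± 2.8 CPM per kb. Among the calcium- or sodium-activated members, the sodium-activated Kcnt2 was highest at 15.9 CPM per kb, and the large-conductance channel gene Kcnma1 reached 13.7 ± 0.204. In Control_TRAP the order changed, with Kcnj4 first at 136 ± 36.5 CPM per kb, then the A-type channel partner Kcnip2 at 119.6 ± 17.4, the beta subunit Kcnab1 at 87.5 ± 7.02 and the A-type pore Kcnd2 at 81.0 ± 5.56. Kcnj4 and Kcnip2 did not differ beyond their spread. In the same change of pool, Kcnip2 moved from rank 14 to rank 2 and Kcnj10 from rank 10 to rank 45 of the 94.

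**Figure D1:**
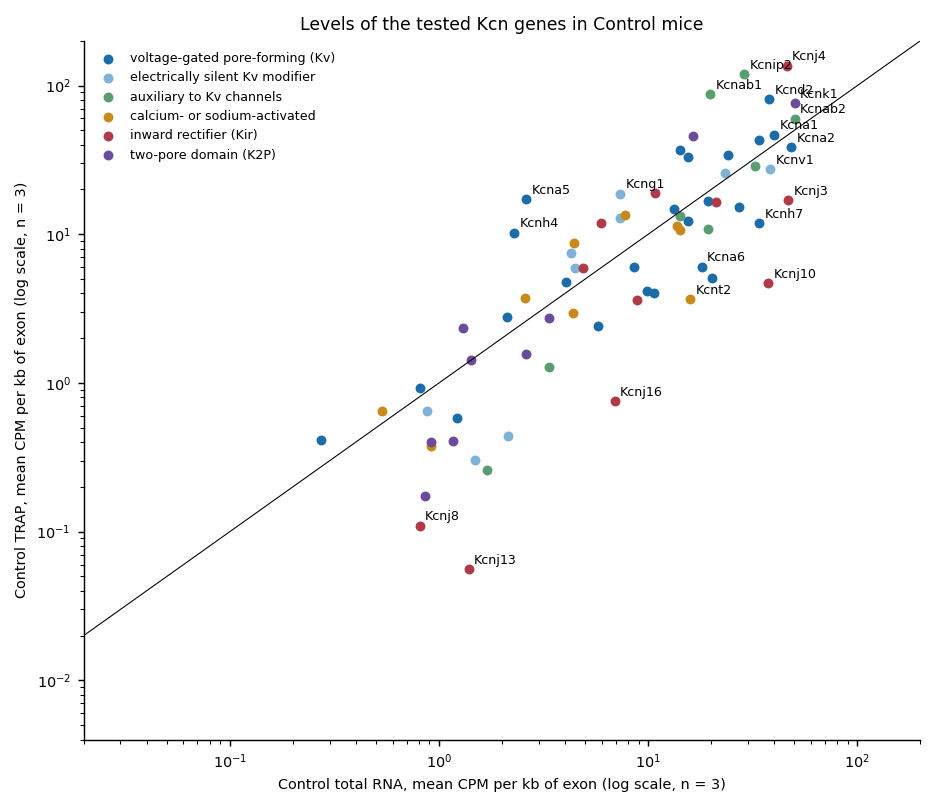
Mean level of 71 of the 73 tested Kcn genes in Control mice, in CPM per kb of exon on log axes, with total-RNA on the x axis and TRAP on the y axis (each point is 1 gene, mean of 3 libraries, coloured by role; the line marks equal levels). Kcnj4, Kcnip2 and Kcnab1 lie above the line among the highest levels, and the Kir genes Kcnj10, Kcnj16, Kcnj8 and Kcnj13 lie below it.

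The comparison of TRAP with total-RNA sets RNA pulled down with the tagged ribosomes beside RNA of all cells of the tissue. A difference can reflect which cells carry the tag as well as engagement with ribosomes, and these cannot be told apart here. With edgeR's quasi-likelihood test and Benjamini-Hochberg adjustment over 14072 genes, at adjusted p under 0.05, 55 of the 73 tested Kcn genes differed in Control mice, 23 higher and 32 lower in TRAP, where 59.9% of all genes tested did (29.5% higher and 30.4% lower). In EtOH mice 53 differed, 26 higher and 27 lower (50.7% of all genes, 24.3% higher and 26.5% lower), and in EtOH + ABT-888 mice 50 differed, 22 higher and 28 lower (41% of all genes, 19.5% higher and 21.5% lower). The 3 comparisons use different mice. A total of 45 members were called in all of them, 21 always higher and 24 always lower, where 36% of all genes were called in all 3 (16.8% always higher and 19.2% always lower). None of the 45 changed direction, and 0.0142% of all genes were called in all 3 with mixed directions. In paired terms, TRAP exceeded total-RNA in all 11 mice for 24 members and lay below it in all 11 for 30 (32.9% and 41.1% of the 73), as did 24.5% and 26.7% of all genes. The median absolute log2 fold change in Control was 0.84 for the Kcn genes and 0.51 for all genes, and the median signed value was -0.19 against 0.02.

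Among the Kv pore-forming subunits, 8 of 27 were higher and 11 lower in Control_TRAP, beside 29.5% and 30.4% of all genes. The delayed rectifier Kcna5 was at 55.3, 48.2 and 44.1 CPM in Control_TRAP and at 8.1, 7.22 and 7.12 in Control_total-RNA, a log2 fold change of 2.70 ± 0.13 (SE, adjusted p = 7.38e-08). The A-type pores Kcna4 (log2 fold change 1.36 ± 0.11) and Kcnd2 (1.08 ± 0.08), the Elk channel Kcnh4 (2.15 ± 0.17) and the M-channel subunits Kcnq5 (0.48 ± 0.09) and Kcnq3 (0.33 ± 0.11) were higher as well. Lower were the Kv3 genes Kcnc2 (-2.0 ± 0.16), Kcnc4 (-1.40 ± 0.14) and Kcnc1 (-0.35 ± 0.10), the Erg-type Kcnh7 (-1.53 ± 0.09), the Kv1 genes Kcna6 (-1.58 ± 0.15), Kcna3 (-1.25 ± 0.18) and Kcna2 (-0.34 ± 0.10), and the delayed rectifier Kcnb2 (-1.28 ± 0.11).

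Of 15 Kcn subfamilies with 2 or more tested members, 11 had calls in both directions in Control, where 29.5% of all genes were called higher and 30.4% lower, and no such count was made for other gene families. The A-type pores Kcnd2 and Kcnd3 split, at 1.08 ± 0.08 and -0.53 ± 0.12, and so did the sodium-activated channels Kcnt1 (0.77 ± 0.09) and Kcnt2 (-2.15 ± 0.10), where Kcnt1 read 127, 128 and 128 CPM in TRAP against 73.2, 80.6 and 68.1 in total-RNA, and Kcnt2 27.6, 24.0 and 23.8 CPM against 109, 105 and 114. The mechano- and lipid-gated K2P genes Kcnk2 (1.46 ± 0.13) and Kcnk10 (-2.27 ± 0.26) are a further such pair. Among the small-conductance calcium-activated genes, Kcnn3 (0.97 ± 0.11) and Kcnn1 (0.52 ± 0.16) were higher and Kcnn2 (-0.58 ± 0.11) lower. Among the silent subunits, Kcng1 (1.33 ± 0.13), Kcns2 and Kcns1 were higher, whereas Kcng4 (-2.40 ± 0.33), Kcns3 (-2.32 ± 0.48) and Kcnv1 (-0.49 ± 0.09) were lower. All 3 members known from fast-spiking interneurons, Kcnc1, Kcnc2 and Kcns3, were lower, beside the 7 interneuron markers, of which 3 were higher and 2 lower, and the part of interneurons in these values was not tested. Of 5 members known from pyramidal neurons, Kcnd2, Kcnq3 and Kcnq5 were higher, Kcnv1 was lower, and Kcnf1 was not called.

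Of the 8 auxiliary genes tested, Kcnab1 and Kcnip2 were higher and Kcnip4, Kcnip1 and Kcne1l lower, beside 29.5% and 30.4% of all genes. Kcne1l held 646 counts over all libraries and was at 0.166 to 0.534 CPM in Control_TRAP against 2.21 to 2.87 in Control_total-RNA. It passed the filter mainly through total-RNA, so its call as lower in TRAP depends on that filter. Kcnab1 was at 793, 779 and 682 CPM in Control_TRAP against 161, 176 and 173 in Control_total-RNA (log2 fold change 2.13 ± 0.09, adjusted p = 6.14e-08), and its TRAP values stayed above every total-RNA value in the treated mice. Kcnip2 was at 404, 481 and 362 CPM against 93.4, 109 and 98 (2.04 ± 0.11, adjusted p = 1.79e-07). Among the inward rectifiers, Kcnj4, Kcnj11 and Kcnj2 were higher in TRAP (Kcnj4 at 279, 377 and 222 CPM against 95.5, 115 and 86.1), and 6 of 11 were lower, again beside 29.5% and 30.4% of all genes. The astrocytic Kcnj10 was at 32.5, 14.4 and 28.7 CPM in Control_TRAP against 209, 221 and 179 (log2 fold change -3.04 ± 0.24, adjusted p = 1.27e-06), and Kcnj16 at 2.88, 2.22 and 3.81 against 26.7, 26.2 and 28.8. The pericyte gene Kcnj8 was at 0.107 to 0.455 CPM in Control_TRAP against 1.54 to 2.90, and the choroid plexus gene Kcnj13 at 0 to 0.213 against 1.20 to 2.11. With 570 and 555 counts, both passed the filter mainly through total-RNA, so their place among the lower genes depends on that filter. The G-protein-gated subunits Kcnj3 (-1.49 ± 0.08) and Kcnj6 (-1.31 ± 0.11) were lower, while Kcnj9 had -0.37 ± 0.16 (adjusted p = 0.0646 in the fit without pairing by mouse). In paired terms Kcnj9 was lower in TRAP in 10 of 11 mice. Not every gene known from glia was lower, since Kcnk13 was at 7.04, 6.7 and 8.02 CPM in Control_TRAP against 3.28, 5.21 and 3.68 (0.82 ± 0.23, adjusted p = 0.00854), and it was above total-RNA in all 11 mice, while the summed level of the 6 microglia markers was 12.7 to 26.2 CPM against 225 to 238.

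**Figure D2:**
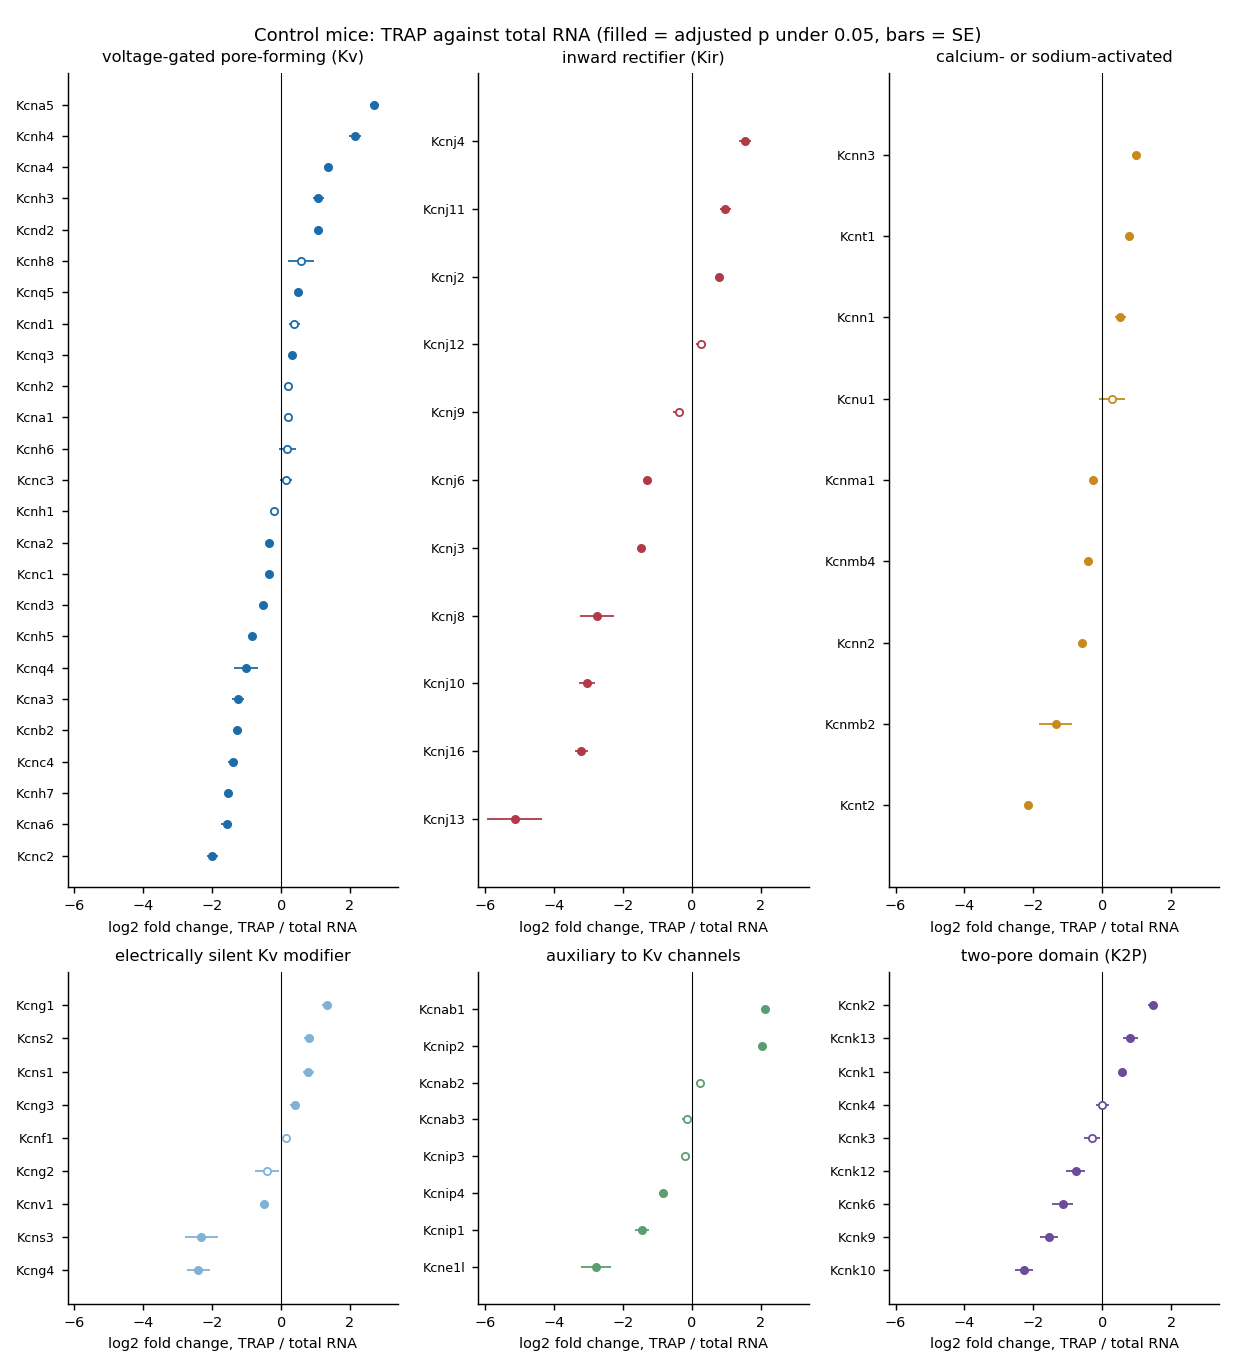
Log2 fold change of TRAP over total-RNA in Control mice (x axis, n = 3 mice) for 71 of the 73 tested Kcn genes, in 6 panels by role, with bars for the SE and filled points for adjusted p under 0.05. Filled points stand on both sides of 0 in every panel and reach 2.70 for Kcna5, and the plotted value of Kcnj13, which had a count in only 1 of the 3 Control_TRAP libraries, depends on the prior count.

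Channel partners outside the Kcn symbols were counted as a list. Of 19 partner genes (DPP-like proteins, sulfonylurea receptors, Lgi1 with its receptors, anchors and others), 16 were tested, with 6 higher and 4 lower in Control_TRAP, beside 29.5% and 30.4% of all genes. The A-type channel partner Dpp6 was higher (log2 fold change 0.66 ± 0.08) and Dpp10 lower (-1.36 ± 0.14), and Abcc9, the sulfonylurea receptor that pairs with Kcnj8, was lower (-3.63 ± 0.46).

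The next comparison asks which channel transcripts changed with ethanol. In EtOH_TRAP against Control_TRAP, 3 of 73 Kcn genes were called, Kcnv1 and Kcnt2 lower and Kcna1 higher, where 5.24% of all genes tested were called (2.77% higher and 2.47% lower). In EtOH_total-RNA against Control_total-RNA, 10 were called, 8 lower (Kcnv1, Kcna6, Kcnj10, Kcnj9, Kcng4, Kcns3, Kcng1 and Kcnc4) and 2 higher (Kcna1 and Kcna5), where 17.6% of all genes were (9.04% higher and 8.6% lower). The share of members called, 3 of 73 and 10 of 73, was thus not above that of all genes. The log2 fold change was below 0 for 51 of the 73 members in total-RNA (49.9% of all genes) and for 46 in TRAP (48.5% of all genes), with medians of -0.17 and -0.19 against 0.00 and 0.02 over all genes. The libraries of both pools come from the same mice.

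Kcnv1 (ENSMUSG00000022342.5, mm10 chr15:45106284-45114920, minus strand), a silent subunit known from cortical neurons, fell in both pools. In TRAP it was at 122, 119 and 136 CPM in Control and at 65.1, 63.2, 74.7 and 56.3 in EtOH (log2 fold change -0.94 ± 0.14, adjusted p = 0.00572). In total-RNA it was at 167, 168 and 189.8 CPM in Control and at 97.1, 64.2, 94.7 and 79.7 in EtOH (-1.06 ± 0.14, adjusted p = 0.000569). Every EtOH library lay below every Control library in both pools, and the call held in each fit that left out 1 library. Beside Kcnv1, the excitatory neuron marker Neurod6 fell in both pools (-1.68 ± 0.30 in TRAP and -0.99 ± 0.15 in total-RNA), as did Nrgn in total-RNA, so 1 of 5 markers of that list was lower in TRAP and 2 of 5 in total-RNA. Other markers moved in total-RNA too. There 1 of 5 striatal markers was higher (summed 507 to 649 CPM in Control and 635 to 961 in EtOH). Of 7 interneuron markers 1 was higher (821 to 883 CPM against 942 to 1023). In TRAP 1 striatal marker was lower and no interneuron marker was called. The part of all these markers in the change of Kcnv1 was not tested.

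Kcna1 (ENSMUSG00000047976.4, mm10 chr6:126640397-126646384, minus strand), the Kv1.1 subunit of axons, rose in both pools. It was at 226, 237 and 205 CPM in Control_TRAP and at 374, 361, 336 and 314 in EtOH_TRAP (log2 fold change 0.66 ± 0.13, adjusted p = 0.0176), and at 198, 201 and 175 CPM in Control_total-RNA and at 257, 323, 267 and 257 in EtOH_total-RNA (0.53 ± 0.11, adjusted p = 0.00712). The groups did not overlap in either pool. The call in TRAP was lost without any 1 of the 3 Control_TRAP libraries (log2 fold change 0.60 to 0.70, adjusted p 0.0818 to 0.109), and the call in total-RNA was kept in every such fit. Kcna6 (ENSMUSG00000038077.7, mm10 chr6:126708329-126740674, minus strand), another Kv1 subunit encoded near Kcna1, moved the other way in total-RNA, from 102, 123 and 95.3 CPM in Control to 57.8, 46.6, 55.8 and 74.3 in EtOH (-0.87 ± 0.15, adjusted p = 0.00263). In TRAP its groups overlapped (-0.60 ± 0.26, adjusted p = 0.194). The Kv1 subunit Kcna5 was higher in EtOH_total-RNA, at 13, 16.8, 8.63 and 10.2 CPM against 8.1, 7.22 and 7.12 (0.71 ± 0.21, adjusted p = 0.0360).

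Kcnj10 (ENSMUSG00000044708.5, mm10 chr1:172341210-172374085, plus strand), the main Kir channel of astrocytes, was at 209, 221 and 179 CPM in Control_total-RNA and at 124, 122, 157 and 125 in EtOH_total-RNA (log2 fold change -0.62 ± 0.12, adjusted p = 0.00480), with no overlap. The 7 astrocyte markers beside it did not move together, with 2 higher and 1 lower and a summed level of 1063 to 1141 CPM in Control against 1075 to 1258 in EtOH. Kcnj9, a G-protein-gated Kir subunit, was at 95.3, 100.1 and 75.7 CPM in Control_total-RNA and at 52.1, 47.7, 33.7 and 78.4 in EtOH_total-RNA (-0.77 ± 0.21, adjusted p = 0.0272), where the highest EtOH library overlapped Control. The silent subunits Kcng4 (-0.94 ± 0.26, adjusted p = 0.0285), Kcns3 (-0.60 ± 0.17, adjusted p = 0.0334) and Kcng1 (-0.46 ± 0.14, adjusted p = 0.0374) and the Kv3 gene Kcnc4 (-0.39 ± 0.12, adjusted p = 0.0463) were lower as well.

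Kcnt2 (ENSMUSG00000052726.15, mm10 chr1:140246158-140612067, plus strand), a sodium-activated channel subunit, was called in TRAP, from 27.6, 24.0 and 23.8 CPM in Control to 8.0, 7.80, 9.88 and 17.6 in EtOH (log2 fold change -1.20 ± 0.28, adjusted p = 0.0293). All 4 EtOH_TRAP libraries lay below Control. In total-RNA it was at 109, 105 and 114 CPM in Control and at 67.1, 71.6, 82.1 and 119.6 in EtOH (-0.36 ± 0.17, adjusted p = 0.148), where EtOH replicate 4 was above all Control libraries. The call in TRAP was lost in 6 of 7 fits with 1 library left out, in which the log2 fold change was -1.08 to -1.24, that is without any Control_TRAP replicate (adjusted p up to 0.131) or without EtOH_TRAP replicate 1 (0.0543), 2 (0.0635) or 3 (0.0581).

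Among the members with the smallest p in these comparisons that did not pass edgeR's quasi-likelihood test, the silent subunit Kcnf1 was at 112, 146 and 114 CPM in Control_TRAP and 102, 77.4, 68.2 and 92.3 in EtOH_TRAP (adjusted p = 0.0814), and the M-channel subunit Kcnq3 at 659, 705 and 528 CPM against 328, 411, 527 and 449 (adjusted p = 0.0947). Its relative Kcnq5 was at 281, 257 and 242 CPM against 256, 403, 369 and 269.8, and the calcium sensor Kcnip3 at 106, 104 and 95.6 against 129, 125, 134 and 122 (adjusted p = 0.138). In total-RNA the A-type pore Kcnd3 was at 83.5, 77.4 and 86.1 CPM in Control and 119, 97.7, 98.7 and 93.8 in EtOH (adjusted p = 0.0616), and the low-level silent subunit Kcng2 at 3.82, 2.21 and 1.81 against 4.16, 6.11, 2.53 and 4.18. In TRAP, Kcnf1 passed with DESeq2, with the exact test and without the filter (adjusted p = 0.0355 to 0.0418), and Kcnq3 with DESeq2, without the filter and when all 22 libraries shared 1 fit (adjusted p = 0.0271 to 0.0466). In total-RNA, Kcnd3 passed with DESeq2 and the exact test (adjusted p = 0.0372 and 0.0488) and Kcng2 without the filter (adjusted p = 0.0413). Kcnq3, Kcnf1, Kcnip3 and Kcnd3 showed no overlap between the groups compared, as did 22.3% of all genes in TRAP and 30.5% in total-RNA. Of the 16 partner genes, 1 was called with ethanol in TRAP and 3 in total-RNA, beside the 5.24% and 17.6% of all genes. Lrrc55, an auxiliary subunit of Kcnma1 channels, was lower in TRAP (-1.49 ± 0.27) and in total-RNA (-0.76 ± 0.16), Abcc9 was lower (-0.57 ± 0.17) and Cntnap2 higher (0.38 ± 0.10) in total-RNA. Kcnma1 itself, Kcnj3 and Kcnj6 were called in neither pool by the quasi-likelihood test, and Kcnj6 was called without the filter in TRAP (-0.89, adjusted p = 0.0234) and in total-RNA (-0.36, adjusted p = 0.0448).

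The promoters of 4 of the members whose transcripts were called lower with EtOH or EtOH + ABT-888 in at least 1 of the pools are shown as examples, chosen by no rule, from the RefSeq table used (GRCm38.p6). Kcnj9, Kcng4, Kcns3 and Kcnc4 were called lower in EtOH_total-RNA and have windows there too, which are not printed. Each is the 250 bases before the transcript start, 5′ to 3′ on the strand of the gene, and capitals mark GC boxes (GGGCGG on either strand), glucocorticoid receptor half-sites (AGAACA) and cAMP response element half-sites (TGACG), each searched on both strands.
Kcna6, chr6:126740675-126740924, minus strand: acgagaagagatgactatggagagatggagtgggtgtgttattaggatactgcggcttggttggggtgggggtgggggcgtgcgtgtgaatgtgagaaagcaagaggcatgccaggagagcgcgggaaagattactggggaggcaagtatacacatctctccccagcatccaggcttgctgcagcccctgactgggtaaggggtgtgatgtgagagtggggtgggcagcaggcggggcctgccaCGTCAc
Kcnj10, chr1:172340960-172341209, plus strand: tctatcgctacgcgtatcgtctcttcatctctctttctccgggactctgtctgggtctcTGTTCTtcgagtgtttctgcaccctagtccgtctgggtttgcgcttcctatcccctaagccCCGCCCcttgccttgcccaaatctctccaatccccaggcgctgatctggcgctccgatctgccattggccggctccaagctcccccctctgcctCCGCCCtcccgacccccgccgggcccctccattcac
Kcnt2, chr1:140245468-140245717, plus strand: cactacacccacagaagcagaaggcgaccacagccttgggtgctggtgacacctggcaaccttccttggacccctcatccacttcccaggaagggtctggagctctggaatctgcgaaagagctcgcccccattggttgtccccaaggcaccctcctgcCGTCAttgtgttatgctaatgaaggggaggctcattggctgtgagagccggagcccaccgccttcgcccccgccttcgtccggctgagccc
Kcnh7, chr2:63184288-63184537, minus strand: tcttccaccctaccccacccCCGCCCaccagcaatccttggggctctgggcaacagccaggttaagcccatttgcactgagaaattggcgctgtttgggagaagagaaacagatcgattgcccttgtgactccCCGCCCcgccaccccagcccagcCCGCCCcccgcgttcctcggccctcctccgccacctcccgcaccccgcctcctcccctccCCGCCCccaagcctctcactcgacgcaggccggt
The window of Kcnh7 held 4 GC boxes and that of Kcnj10 held 2, with 1 glucocorticoid receptor half-site, whereas those of Kcna6 and Kcnt2 held 1 cAMP response element half-site each and no GC box. Of the windows not printed, that of Kcnc4 held 1 GC box and 1 cAMP response element half-site, those of Kcns3 held 2 GC boxes and 1, that of Kcnj9 held 1 TATA box and no GC box, and that of Kcng4 held none of these motifs. These matches are descriptions of letters. Over all 32851 promoter windows, 32.7% held a GC box, 16.1% a glucocorticoid receptor half-site and 17.8% a cAMP response element half-site, and over the 94 windows of Kcn genes with an entry (69 genes) the shares were 44.7%, 13.8% and 16%. The full element TGACGTCA, which contains the last of these half-sites, was in 1.55% of all windows and in 0 of the Kcn windows. The TATA box TATAAA was in 12.4% of all windows and in 3.19% of the Kcn windows.

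The treated mice differed among themselves, and EtOH replicate 4 carried weight in both pools. Among the 4 EtOH mice it had the value nearest to the Control mean for 25 of 73 members in TRAP and 27 in total-RNA, against 10 to 19 for each of the other three, and over all genes for 35.6% and 34.2%. Kcnh7 (ENSMUSG00000059742.10, mm10 chr2:62693414-63184287, minus strand), an Erg-type channel, was among the members where this showed. It was at 185, 166 and 193 CPM in Control_TRAP and at 50.5, 30.5, 81.9 and 166 in EtOH_TRAP, and at 523, 524 and 505 in Control_total-RNA and at 227, 235, 345 and 508 in EtOH_total-RNA, so that replicate 4 stood at the Control level in both pools. With all mice it was not called by edgeR's quasi-likelihood test (log2 fold change -1.12 ± 0.40, adjusted p = 0.124 in TRAP, and -0.65 ± 0.22, adjusted p = 0.0584 in total-RNA). It was called with all mice in TRAP when all 22 libraries shared 1 fit (adjusted p = 0.0447) and without the filter (adjusted p = 0.00011), and in total-RNA by edgeR's exact test (adjusted p = 0.0240) and without the filter (adjusted p = 2.11e-06). Without replicate 4 it was called by the quasi-likelihood test (-1.72 ± 0.28, adjusted p = 0.00484, and -0.95 ± 0.14, adjusted p = 0.00109). Such a fit leaves out the EtOH mouse nearest to Control for this gene, which favours a call.

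Without EtOH_TRAP replicate 4, 11 Kcn genes were called in TRAP, 10 lower and 1 higher (11% of all genes tested), and without EtOH_total-RNA replicate 4, 19 were called, 16 lower and 3 higher (25.7% of all genes). This mouse was chosen after its values, most often nearest to the Control mean, were seen. Leaving it out favours larger differences and more calls, so the calls gained are not a test of these members. Those gained in TRAP were Kcnh7, the G-protein-gated Kir genes Kcnj6 (-1.49 ± 0.30) and Kcnj9 (-1.42 ± 0.35), the K2P genes Kcnk4 and Kcnk9, and the Kv genes Kcnb2, Kcnc2 and Kcna2. Those gained in total-RNA included Kcnh7, Kcnt2 (-0.58 ± 0.10), Kcnb2, Kcnh5, Kcnj6 and the astrocytic Kcnj16 (-0.57 ± 0.15). Leaving out other libraries lowered the counts. In total-RNA, 6 of the 10 calls (Kcnj9, Kcng4, Kcns3, Kcna5, Kcng1 and Kcnc4) were lost in some fits with 1 library left out, while over the 7 such fits the log2 fold changes ran from -1.09 to -0.27 for the 5 lower genes and from 0.51 to 0.84 for Kcna5. All 6 were lost without Control_total-RNA replicate 1 (adjusted p up to 0.128) or 2 (up to 0.238) and without EtOH_total-RNA replicate 2 (up to 0.0957), 5 were lost without Control replicate 3 (up to 0.118), 5 without EtOH replicate 1 (up to 0.0840), and 2 without EtOH replicate 3 (up to 0.0749). The share of all genes called was lower in these fits too, at 6.24% to 8.71% without a Control library and 11.6% to 15.5% without EtOH replicate 1, 2 or 3. The calls of Kcnv1, Kcna1, Kcna6 and Kcnj10 in total-RNA were kept without any 1 library. When all 22 libraries shared 1 fit, the calls of Kcna6 (-0.87, adjusted p = 0.140) and Kcnj10 (-0.62, adjusted p = 0.461) were lost, with 1.07% of all genes called. In the same total-RNA comparison, 5 of 6 microglia markers were lower with ethanol (summed 225 to 238 CPM in Control and 77.1 to 112 in EtOH), and their part in the values of the members was not tested.

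**Figure D3:**
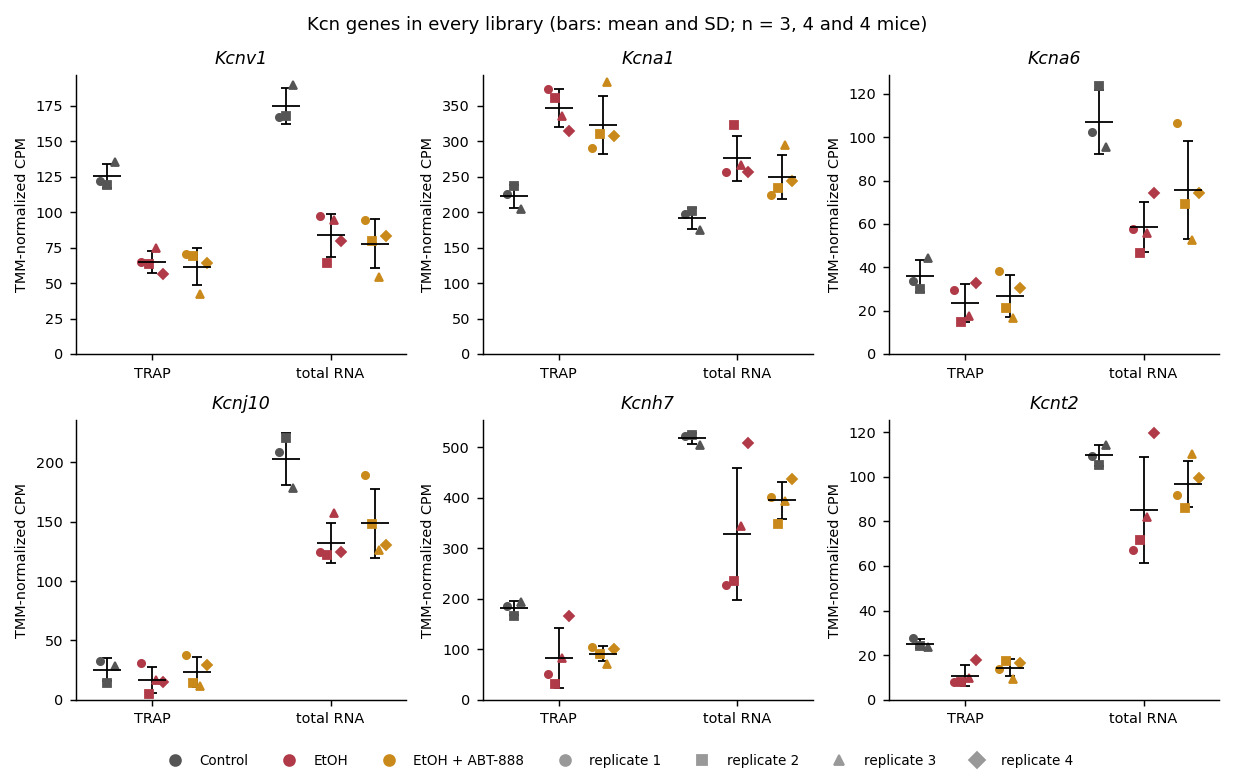
TMM-normalized CPM of Kcnv1, Kcna1, Kcna6, Kcnj10, Kcnh7 and Kcnt2 in every library (y axis, starting at 0), by pool and treatment, with a bar for the mean and whiskers for the SD of 3 or 4 mice, and marker shapes for the replicate. Kcnv1 and Kcna1 separate Control from both treated groups in each pool, and EtOH replicate 4 is the highest EtOH library of each pool for Kcnh7 and Kcnt2.

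The third question is whether ABT-888 given with ethanol changed these transcripts. In EtOH + ABT-888_TRAP against Control_TRAP, 2 Kcn genes were called, both lower, where 0.476% of all genes were called (0.291% lower), and in total-RNA 1 was, where 0.263% of all genes were (0.0853% lower). These comparisons use the same Control libraries as those of EtOH. Kcnv1 was at 70.4, 69.2, 42.5 and 64.5 CPM in EtOH + ABT-888_TRAP (log2 fold change from Control -1.02 ± 0.19, adjusted p = 0.0413) and at 94.2, 79.9, 54.0 and 83.4 in EtOH + ABT-888_total-RNA (-1.17 ± 0.17, adjusted p = 0.0363), again below every Control library. Beside it, 1 of the 5 excitatory neuron markers was called, Neurod6, lower in both pools (-1.73 ± 0.31 in TRAP and -0.80 ± 0.14 in total-RNA), with a summed level of the 5 of 4379 to 5765 CPM in EtOH + ABT-888_TRAP and 4279.7 to 4922 in EtOH + ABT-888_total-RNA. No oligodendrocyte, endothelial and pericyte or microglia marker was called, though in TRAP the median log2 fold change was 0.82 for 7 oligodendrocyte markers (summed 315 to 417 CPM in Control and 299.8 to 1376 in EtOH + ABT-888) and 1.04 for 7 endothelial and pericyte markers (12.6 to 26.3 against 17.4 to 43.5), and in total-RNA it was -1.06 for 6 microglia markers (225 to 238 against 61.9 to 179.7). Their part in these values was not tested. Kcnh7 was at 104, 91.0, 70.2 and 101 CPM in EtOH + ABT-888_TRAP (-0.97 ± 0.17, adjusted p = 0.0322), with none at the Control level, and at 401, 348, 393 and 437 in total-RNA (-0.39 ± 0.10, adjusted p = 0.114). Its call in TRAP was lost when all 22 libraries shared 1 fit (log2 fold change -0.99, adjusted p = 0.128), and in total-RNA it was called by DESeq2 (adjusted p = 0.0230) and edgeR's exact test (adjusted p = 0.0325). All 3 calls were lost without any 1 Control library (adjusted p 0.144 to 0.284), without EtOH + ABT-888 replicate 2 (0.101 in TRAP and 0.133 in total-RNA) and without replicate 4 (0.133 to 0.159). In each of these fits 0 of the 14072 genes were called, and the log2 fold changes were -0.96 to -1.09 for Kcnv1 and -0.92 to -1.05 for Kcnh7 in TRAP, and -1.11 to -1.20 for Kcnv1 in total-RNA. Without EtOH + ABT-888_TRAP replicate 3, 4 members were called in TRAP (Kcnk4 and Kcnab3 were gained, with 1.26% of all genes called), and without EtOH + ABT-888_total-RNA replicate 1, 4 were called in total-RNA (Kcnj10, Kcna6 and Kcna4 were gained, with 6.18% of all genes called).

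Kcna1 was at 289.8, 311, 384 and 308 CPM in EtOH + ABT-888_TRAP and at 224, 235, 295 and 244 in EtOH + ABT-888_total-RNA, above every Control library in both pools, and did not pass the test (0.55 ± 0.15, adjusted p = 0.156, and 0.39 ± 0.12, adjusted p = 0.164). In TRAP it was called by DESeq2 (log2 fold change 0.56, adjusted p = 0.0352) and when all 22 libraries shared 1 fit (0.54, adjusted p = 0.0235). Kcnt2 was at 13.9, 17.6, 9.29 and 16.7 CPM in EtOH + ABT-888_TRAP, below every Control library (-0.80 ± 0.25, adjusted p = 0.203). Groups did not overlap for 14% of all genes in that TRAP comparison and for 16.9% in total-RNA. Kcna6 in EtOH + ABT-888_total-RNA was at 107, 69.3, 52.5 and 74.2 CPM, and Kcnj10 at 189.6, 148, 126 and 130.2, both overlapping Control.

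EtOH + ABT-888 was also compared with EtOH directly. No Kcn gene was called with edgeR's quasi-likelihood test in TRAP or in total-RNA, nor with DESeq2 or edgeR's exact test, and no gene of the 14072 was called by the first of these. At an unadjusted p under 0.05, 3 members stood in each pool (Kcnj8, Kcnd3 and Kcnab3 in TRAP, Kcng4, Kcnn1 and Kcnk4 in total-RNA), against 0.966% and 1.91% of all genes. For Kcnv1 the difference between EtOH + ABT-888 and EtOH was -0.08 ± 0.19 on the log2 scale in TRAP and -0.11 ± 0.18 in total-RNA, and for Kcna1 it was -0.10 ± 0.15 and -0.15 ± 0.12. For Kcnj10 in total-RNA it was 0.17 ± 0.15, and for Kcna6 0.37 ± 0.20. Each of these differences lay within 2 SE of 0, which does not show that the treatments act alike. The change with ethanol was tested for a difference between pools by an interaction over all 22 libraries, and no Kcn gene was called (0.0213% of all genes). At an unadjusted p under 0.05 there were 4 members, Kcnip3 (0.52 ± 0.18), Kcnt2 (-0.85 ± 0.34), Kcnq3 (-0.52 ± 0.22) and Kcng1 (0.65 ± 0.30), where 4.87% of all genes were under that limit. The call of Kcnt2 in TRAP and not in total-RNA was therefore not shown to differ between the pools (adjusted p = 0.958).

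**Figure D4:**
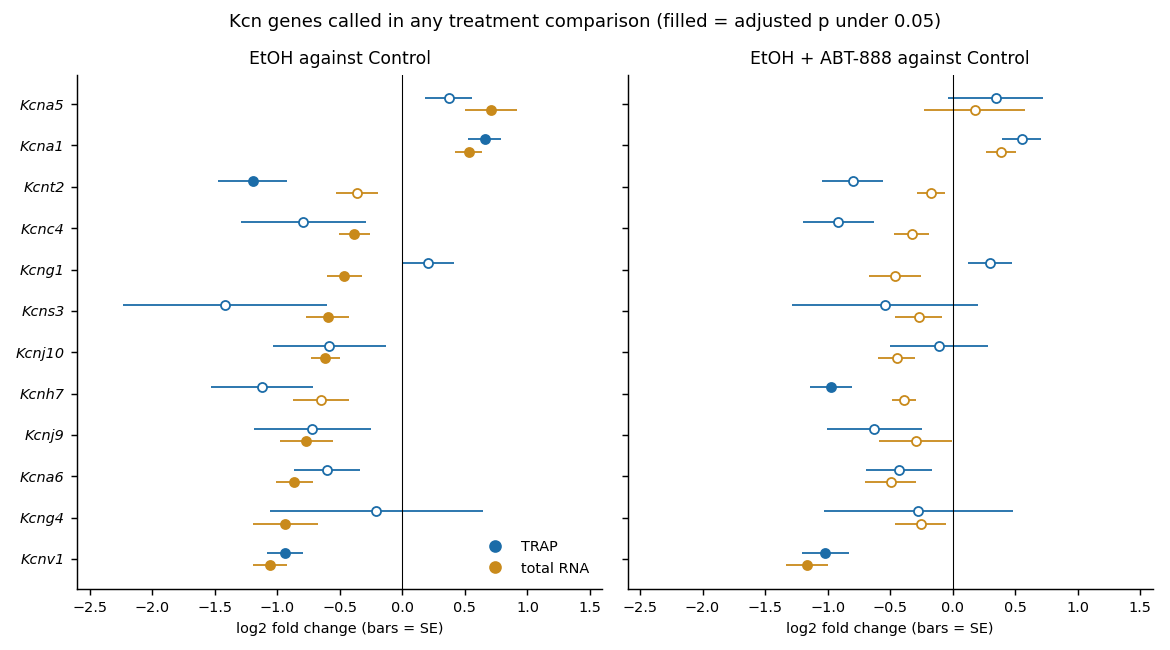
Log2 fold change against Control (x axis, bars for the SE) of the 12 Kcn genes called in at least 1 treatment comparison, for EtOH (left) and EtOH + ABT-888 (right), in TRAP and total-RNA. Filled points passed adjusted p under 0.05, and Kcnv1 is the 1 gene filled in all 4 comparisons, between -0.94 and -1.17.

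In all, 12 of the 73 tested members were called in at least 1 of the 4 comparisons of a treatment with Control, and 61 in none, and 19.8% of all genes were called in at least 1. Members not called with any treatment included the abundant Kcnk1, Kcnab2, Kcna2, Kcnj4 and Kcnma1. The 21 members below the filter held 0 to 414 counts over the 22 libraries and were not tested, among them the cardiac and epithelial auxiliary subunits Kcne1 and Kcne2 (1 and 102 counts) and Kcnq1 (103 counts).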

How the data were processed

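RNA from the PFC of 11 mice was sequenced as 1 TRAP and 1 total-RNA library per mouse after rRNA depletion (CORALL kit, paired-end, NovaSeq). The authors aligned reads to mm10 with STAR and deposited raw counts per gene from featureCounts. Versions, strand setting and treatment of multimapping reads are not given in the sources used here. Total counts per library are given above, and lower totals in TRAP mean larger counting error for low members there. Groups came from the sample labels.

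Genes with at least 500 counts in total and a count in 3 or more libraries were kept (14072). Each comparison was fitted across all of them with edgeR 4.0.16 in R 4.3.3 (TMM factors, quasi-likelihood F test, Benjamini-Hochberg adjustment), and a call is adjusted p under 0.05. The SE is the absolute log2 fold change divided by the square root of F. The scripts were tested on simulated data. The pairing by mouse comes from the labels, where both libraries of a mouse share a number, and deviations from group means correlated within every mouse (r 0.102 to 0.622, over 0.1 in 11 of 11). Gene symbols and exon lengths came from GENCODE release 21, which matched 38872 of the 39056 identifiers, and promoters from RefSeq (GRCm38.p6), where 69 of 94 members had an entry. p-values measure the spread between libraries of different mice in 1 experiment. For TRAP against total-RNA and for the interaction, the main fits did not pair the libraries of a mouse, and the mouse block was an alternative.

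Some genes are counted but not reported here. The members and lists were chosen with earlier results of these data known. Named with values were all members called in a treatment comparison, those with the smallest p in each direction, the highest members of each role and well-known cortical channel genes, while the account of EtOH replicate 4 was chosen after its values were seen. Alternatives were edgeR's exact test and likelihood ratio test, DESeq2 1.42.0, RLE factors, no filter, 1 fit over all libraries, a mouse block, a stricter threshold and each library left out.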

Additional observations from a re-analysis of the deposited data

Results flagged for a closer look

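The 14 members chosen for values in every library gave 56 groups of 4 libraries. In 4 of these groups, 1 library stood apart from the other 3 by Dixon's criterion. Chance gives about 1 in 20 for independent groups, while these share libraries and mice. Kcna1 was at 323 CPM in EtOH_total-RNA replicate 2, with the others at 257 to 267. Kcnj10 was at 157 CPM in EtOH_total-RNA replicate 3, with the others at 122 to 125. Kcng2 was at 5.83 CPM in EtOH + ABT-888_total-RNA replicate 2, with the others at 3.4 to 3.75. Kcnj9 was at 32.2 CPM in EtOH + ABT-888_total-RNA replicate 3, with the others at 83.1 to 91.6.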

How the results depend on the processing

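No named value that was called in the main fit changed direction under any alternative. Named values that were not called there were not checked for this. In EtOH_TRAP against Control_TRAP, 5 Kcn genes were called with DESeq2, 8 without the filter and 5 when all 22 libraries shared 1 fit (11%, 6.13% and 8.46% of all genes). In EtOH + ABT-888_TRAP against Control_TRAP, 4 were called without the filter (1.91%), 2 with the exact test (2.26%), 3 with DESeq2 (3.26%) and 2 in the shared fit (2.86%). In EtOH_total-RNA against Control_total-RNA, 20 were called without the filter (12.8%), some of them members under it, and 2 (Kcnv1 and Kcna1) in that shared fit (1.07%). In EtOH + ABT-888_total-RNA against Control_total-RNA, 4 were called with the exact test, 3 with DESeq2 and 3 without the filter (3.87%, 4.41% and 1.99%). The causes were not tested. With 1 library left out, counts ran from 51 to 56, 45 to 57 and 44 to 50 for TRAP against total-RNA in Control, EtOH and EtOH + ABT-888 (52.5% to 59.6%, 43.6% to 50.3% and 32.3% to 42.2% of all genes), from 1 to 11 and 4 to 19 for EtOH against Control in TRAP and total-RNA (0.597% to 11% and 6.24% to 25.7% of all genes), from 0 to 4 in both pools for EtOH + ABT-888 (0 to 2.65% and 0 to 6.18%), and stayed at 0 between treatments and for the interaction.

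When all 22 libraries shared 1 fit, TRAP against total-RNA gave 42, 54 and 55 calls in Control, EtOH and EtOH + ABT-888 (42.8%, 53.6% and 51.6% of all genes). With the mouse as a replicate block, TRAP against total-RNA gave 61 calls (27 higher, 34 lower) in Control, 57 (27 and 30) in EtOH and 62 (25 and 37) in EtOH + ABT-888 (62.5%, 58.8% and 54.3% of all genes), and the interaction gave 0 (0.0995%). TRAP libraries held fewer counts than total-RNA libraries, which limits low members such as Kcnj13 and Kcnj8.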

Other observations

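EtOH + ABT-888 replicate 3 was the lowest of its 4 mice in both pools for 16 of the 73 members and the highest for 9 (21.9% and 12.3%, with 22.2% and 21.7% of all genes), and it was farthest from the Control mean for 29 members in TRAP and 33 in total-RNA (44.4% and 50.4% of all genes). The lowest included the Kv1 gene Kcna5, at 19.5 CPM in TRAP against 55.2 to 92.0 in the other 3 mice and at 2.42 CPM in total-RNA against 9.36 to 12.1. Kcnf1 was at 31.3 CPM against 73.3 to 118 in TRAP and at 65.4 against 96.1 to 124 in total-RNA, and Kcnj9 at 13.9 against 48.7 to 68.2 in TRAP. Kcna1 was highest in that mouse in both pools.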
